A study of Mus musculus with 12 samples.

Results

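The genes described here encode 4 bone morphogenetic protein (BMP) family ligands (Bmp2, Bmp4, Bmp6 and Gdf5), the activin A subunit Inhba, the secreted BMP antagonists Grem1, Nog and Chrd, the intracellular inhibitor Smad6 and the BMP target Id1. These 10 genes were taken from the 57010 Ensembl gene IDs in the deposited counts by ID, and all 10 had enough counts to be tested. They were read in primary mouse chondrocytes, the cells that make cartilage matrix, in 12 poly-A RNA-seq libraries. The labels give the genotype of all 12 samples as Wild type and name 3 treatments with 4 samples each. Samples labelled WT and SIRT5F101L received a wild-type plasmid or a SIRT5F101L mutant plasmid by transfection. The labels do not say whether Control cells were transfected at all. They do not give the vector or promoter of the plasmids, the time after transfection, the age or sex of the mice, or whether cells of several mice were pooled. Nothing says that the 4 samples of a group came from separate cultures or animals, so the p-values measure only the spread between these samples, which may be technical.

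BMPs and GDF5 bind pairs of type I and type II serine/threonine kinase receptors, which phosphorylate SMAD1, SMAD5 and SMAD9; these join SMAD4 and raise target genes such as the Id family. Secreted proteins such as gremlin 1, noggin and chordin hold the ligands away from their receptors, and SMAD6 blocks the signal inside the cell. In cartilage the pathway drives chondrocyte differentiation and matrix production, and GDF5 marks and shapes developing joints, while activins use related receptors that act mainly through SMAD2 and SMAD3.

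Libraries held between 15095357 and 24242139 counts on genes. Levels are in CPM, which is counts per 1000000 counts of the library, scaled by trimmed mean of M-values (TMM), and folds, standard errors (SE) and adjusted p-values come from edgeR's quasi-likelihood test over 14253 genes, with a call at an adjusted p under 0.05. The first principal component held 72.7% of the variance and separated the Control libraries from all 8 plasmid libraries. Within SIRT5F101L, replicate 1 stood apart: its slope of expression on transcript length was -0.0588, against 0.0809 to 0.103 in the other 3 libraries. The slopes of the WT libraries lay between -0.0361 and 0.0521. Across all genes this library lay nearer to the WT libraries than to its own group. Its median chi-square per gene was 2.61 to 6.27 times the sampling noise against the WT libraries and 8.20 to 8.92 times against the other SIRT5F101L libraries. On the second principal component it was at 20.3, beside -1.07 to 20.1 in WT and -23.5 to -17.0 in its companions. WT replicate 1 also differed from its group, at -1.07 on that component and a slope of 0.0521, against 12.5 to 20.1 and -0.0361 to 0.00235 in the other 3 WT libraries. Its chi-square was 3.63 to 5.804 times the noise within WT and 4.005 to 4.76 times against SIRT5F101L replicates 2 to 4. Chondrocyte markers were abundant, with the 9 markers summing to 9041 to 11345 CPM in Control, 2815 to 2932 in WT and 2295 to 2539 in SIRT5F101L. Col2a1, the main cartilage collagen, averaged 6719, 1665 and 1312 CPM in the 3 groups, Acan, the main cartilage proteoglycan, averaged 133, 185 and 143 CPM, and Sox9, the chondrocyte master regulator, averaged 142, 124 and 113 CPM. Fibroblast and synovial markers were also high, at 18294 to 21753 CPM over 6 genes in Control, 7486 to 8568 in WT and 7709 to 8637 in SIRT5F101L. Their part in the results below was not tested, and in bulk RNA fewer cells of a type and less RNA per cell cannot be told apart. Mouse Sirt5 was at 0.688, 0.384 and 0.721 CPM in Control, WT and SIRT5F101L, with edgeR adjusted p-values of 0.143 and 0.954 for the plasmid groups against Control and 0.459 between them. A rise of Sirt5 with either plasmid was therefore not detected, and the counts do not check the plasmid labels.

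Against Control, Bmp2, Bmp6, Gdf5, Inhba and Grem1 were higher with both plasmids, and Bmp4, Nog, Chrd and Smad6 were lower. In WT, 9 of the 10 genes were called, 5 higher and 4 lower, beside 56.8% of all tested genes called, 28.7% higher and 28.1% lower. In SIRT5F101L, all 10 were called, 5 higher and 5 lower, beside 60.7% of all tested genes, 30% higher and 30.7% lower. The libraries of each plasmid group did not overlap those of Control for any of the 10 genes, as for 53.5% of tested genes in WT and 51.3% in SIRT5F101L. Since most tested genes were called in each of these comparisons, the counts alone say little, and sizes were read beside the calls. A call together with a change of at least 2-fold was met by 7 of the 10 genes in WT, where 16.7% of tested genes met it, and by 7 in SIRT5F101L, where 17.5% did. The median absolute log2 fold change of the 10 genes was 1.94 in WT and 2.197 in SIRT5F101L, against 0.37 and 0.40 over all tested genes. The 10 genes were chosen with earlier results of these data known. These contrasts therefore describe the genes and are not evidence that the family moved more than others. Both comparisons use the same Control libraries, so they are not independent of each other. Between the plasmids, edgeR called 0 of the 10 genes and 0.0421% of all tested genes, which is 6 genes. Both counts rest on SIRT5F101L replicate 1: without it, 2 of the 10 genes (Grem1 and Id1) and 2213 of 14528 tested genes, or 15.2%, were called. That library lay nearer to WT than to its own group over all genes, so leaving it out widens the separation of the groups. At an unadjusted p under 0.05, 4 of the 10 genes and 11.9% of all tested genes passed.

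**Figure D1:**
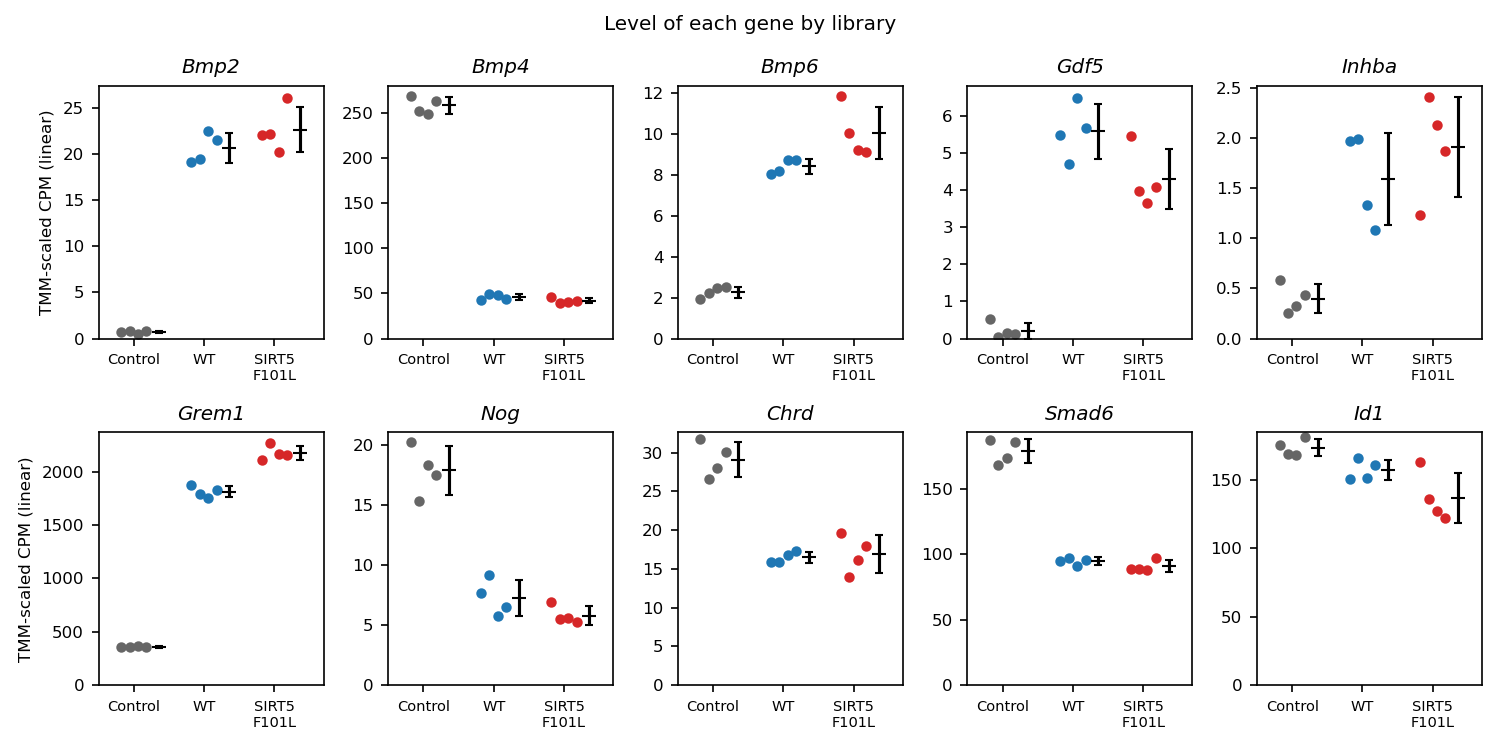
TMM-scaled CPM of the 10 genes in each library, 1 panel a gene with its own vertical axis, by group, with the mean and SD of 4 libraries. Bmp4, Nog, Chrd and Smad6 lie lower in both plasmid groups than in Control, Bmp2, Bmp6, Gdf5, Inhba and Grem1 lie higher, and Id1 differs least.

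Among the ligands, Bmp4 (ENSMUSG00000021835) was the most abundant in every group. BMP4 is a potent inducer of chondrocyte and bone differentiation. The RefSeq promoter of Bmp4 in the GRCm38.p6 build, at chr14:46390650-46390919 on the minus strand, runs from 250 bases before the transcript start to 20 bases after it and is shown because Bmp4 fell the furthest of the 10 genes.
Bmp4 promoter: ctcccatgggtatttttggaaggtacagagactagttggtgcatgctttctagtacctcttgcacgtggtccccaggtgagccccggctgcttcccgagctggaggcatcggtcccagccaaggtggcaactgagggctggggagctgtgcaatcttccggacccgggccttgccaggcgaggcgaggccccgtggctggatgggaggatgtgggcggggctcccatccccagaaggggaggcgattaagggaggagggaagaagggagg
Bmp4 was at 268, 253, 248.7 and 264 CPM in the 4 Control libraries, at 42.6, 48.9, 48.5 and 44.1 in WT, and at 45.4, 39.1, 40.6 and 41.4 in SIRT5F101L. Every plasmid library lay far below every Control library, while the plasmid groups overlapped. The group means were 258 ± 9.16, 46.0 ± 3.14 and 41.6 ± 2.73 CPM (SD, n = 4 each). On the log2 scale Bmp4 fell by 2.49 in WT (SE 0.07, edgeR adjusted p = 4.08e-17) and by 2.63 in SIRT5F101L (SE 0.07, edgeR adjusted p = 1.92e-17).

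Bmp2 (ENSMUSG00000027358), the close relative of Bmp4, moved the other way. It was at 0.697, 0.862, 0.533 and 0.765 CPM in Control, at 19.1, 19.5, 22.5 and 21.6 in WT, and at 22.1, 22.2, 20.3 and 26.1 in SIRT5F101L. Control was near the lower end of what these libraries can measure, with 53 counts over its 4 libraries, and the plasmid groups overlapped each other well above it. Means were 0.714 ± 0.139, 20.7 ± 1.64 and 22.7 ± 2.47 CPM (SD, n = 4 each). Bmp2 rose by 4.84 on the log2 scale in WT (SE 0.15, edgeR adjusted p = 5.19e-16) and by 4.97 in SIRT5F101L (SE 0.15, edgeR adjusted p = 3.10e-16). Changes of at least 16-fold in either direction were found for 1.05% of tested genes in WT and 1.09% in SIRT5F101L. From summed counts, Bmp2 was 28.9 times as high in WT as in Control (exact 95% interval 21.97 to 38.8) and 31.4 times as high in SIRT5F101L (23.9 to 42.0). These intervals, and those for Gdf5 and Inhba below, cover counting error only, since reads without molecular identifiers are not independent molecules.

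Gdf5 (ENSMUSG00000038259), the joint-forming ligand, was close to the detection limit in Control. It had 9, 1, 3 and 2 counts in the 4 Control libraries, or 0.523, 0.0507, 0.160 and 0.109 CPM. The level was 5.48, 4.68, 6.47 and 5.66 CPM in WT and 5.45, 3.96, 3.65 and 4.08 in SIRT5F101L. No plasmid library came near the Control range, and SIRT5F101L replicate 1 lay within the WT range while its other 3 libraries lay below it. The fitted log2 rise was 4.73 in WT (SE 0.34, edgeR adjusted p = 2.94e-10) and 4.35 in SIRT5F101L (SE 0.35, edgeR adjusted p = 1.48e-09). The size depends on Control replicate 1, which held 9 of the 15 Control counts: without it the log2 rise was 5.63 and 5.25. Without Control replicate 2, which held 1 count, the log2 rise was 4.39 in WT and 4.01 in SIRT5F101L. From summed counts the ratio to Control was 27.6 in WT (exact 95% interval 16.5 to 49.8) and 21.0 in SIRT5F101L (12.5 to 37.9). Of the Gdf5 exon bases, 40.3% overlap Gm15557 on the other strand, and whether the counting used strand is not given in the sources used here; Gm15557 itself had 2 counts over all libraries.

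Bmp6 (ENSMUSG00000039004), a ligand known both in cartilage and in the control of iron balance, rose by a smaller factor. Its Control libraries were at 1.92, 2.23, 2.45 and 2.51 CPM, its WT libraries at 8.04, 8.21, 8.72 and 8.74, and its SIRT5F101L libraries at 11.9, 10.1, 9.22 and 9.13. None of the 3 groups overlapped another, and SIRT5F101L replicate 1 was the highest library. The log2 rise was 1.88 in WT (SE 0.14, edgeR adjusted p = 6.26e-10) and 2.14 in SIRT5F101L (SE 0.14, edgeR adjusted p = 6.54e-11).

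Inhba (ENSMUSG00000041324) encodes the βA subunit, which pairs to form activin A. It was at 0.581, 0.253, 0.320 and 0.437 CPM in Control, at 1.97, 1.99, 1.33 and 1.08 in WT, and at 1.23, 2.40, 2.13 and 1.87 in SIRT5F101L. All plasmid libraries exceeded all Control libraries, and the plasmid groups overlapped over most of their ranges. The log2 rise was 1.995 in WT (SE 0.36, edgeR adjusted p = 9.64e-05) and 2.26 in SIRT5F101L (SE 0.36, edgeR adjusted p = 1.77e-05). With 29 Control counts in all, the ratio from summed counts was 4.04 in WT (exact 95% interval 2.67 to 6.30) and 4.86 in SIRT5F101L (3.25 to 7.51).

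Levels of different genes were compared per kilobase of merged exon. In Control, Bmp4 made up 99.2% ± 0.0122 (SD, n = 4) of the summed level per kilobase of Bmp2, Bmp4, Bmp6 and Gdf5. Its share was 66.3% ± 2.10 in WT and 63.2% ± 1.55 in SIRT5F101L. Bmp2 went from 0.173% of that sum in Control to 18.9% in WT and 21.8% in SIRT5F101L. Gdf5 went from 0.0771% to 7.78% and 6.27%, and Bmp6 from 0.506% to 7.01% and 8.80%. Bmp4 thus remained the largest of these 4 in all 12 libraries. These are shares of transcript level among 4 genes and say nothing of protein. Other ligands are outside this sum. Gdf10 was at 14.6 CPM per kilobase in Control, above Bmp2, Bmp6 and Gdf5. Bmp5 was at 3.32 in WT and 3.27 in SIRT5F101L, above Bmp6 and Gdf5 there.

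**Figure D2:**
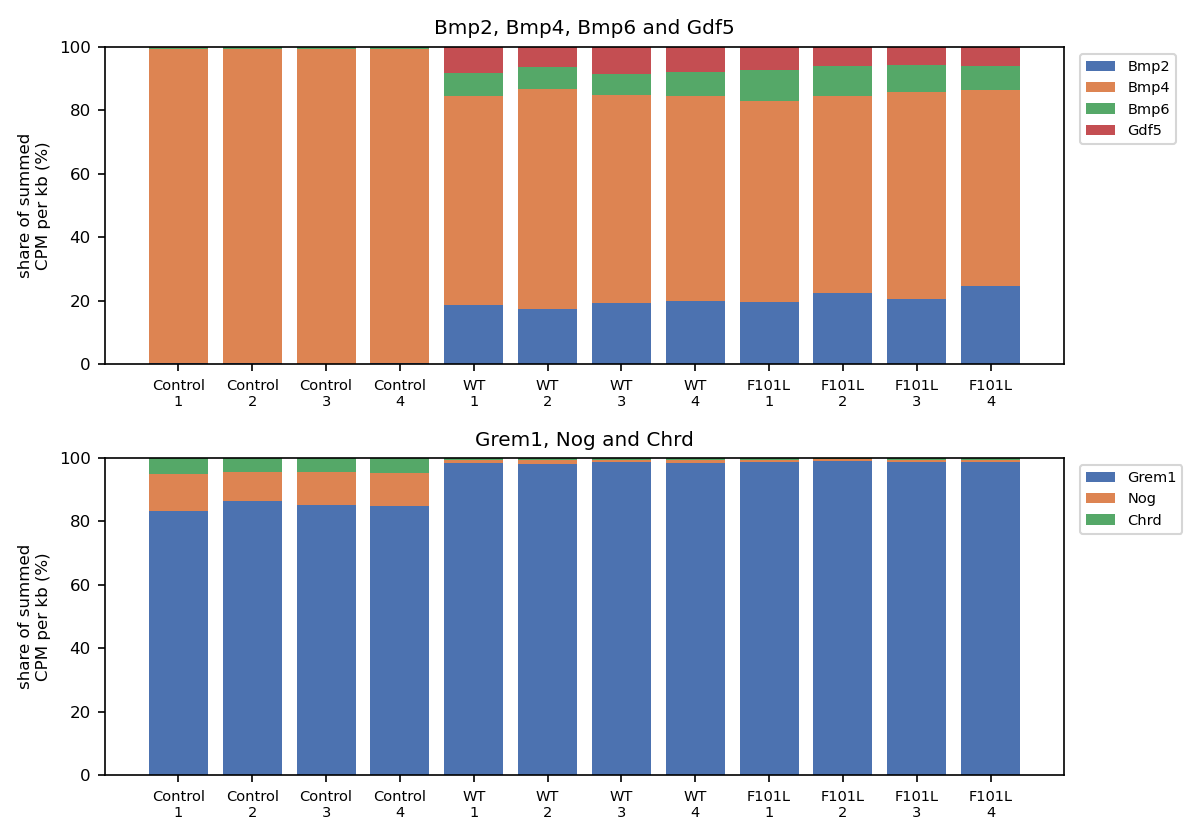
Share, in percent, of each gene in the summed CPM per kilobase of merged exon, for the ligands Bmp2, Bmp4, Bmp6 and Gdf5 and for the antagonists Grem1, Nog and Chrd, 1 stacked bar a library, with SIRT5F101L written as F101L. Bmp4 falls from 99.2% of the ligand sum in Control to 66.3% in WT and 63.2% in SIRT5F101L, while Grem1 goes from 85.0% of the antagonist sum to 98.4% and 98.8%. Other ligands and antagonists are not in these sums.

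The 3 secreted antagonists did not move together: Grem1 rose and Nog and Chrd fell. Grem1 (ENSMUSG00000074934), gremlin 1, binds BMP2, BMP4 and BMP7 and had the highest level per kilobase of the 10 genes in both plasmid groups. Its RefSeq promoter, chr2:113758629-113758898 on the minus strand of GRCm38.p6, is shown for its GGCGCC, written in capitals, a GC-rich element known to bind BMP SMADs.
Grem1 promoter: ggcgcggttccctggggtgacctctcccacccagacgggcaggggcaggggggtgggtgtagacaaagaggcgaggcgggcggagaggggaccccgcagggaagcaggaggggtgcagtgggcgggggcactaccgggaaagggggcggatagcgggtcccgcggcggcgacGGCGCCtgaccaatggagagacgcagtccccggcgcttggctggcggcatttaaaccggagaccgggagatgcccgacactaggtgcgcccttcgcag
Grem1 was at 353, 356, 367 and 352 CPM in Control, at 1876, 1791, 1758 and 1834 in WT, and at 2108, 2273, 2171 and 2154 in SIRT5F101L. The 3 groups did not overlap, and within each the libraries lay close together. Means were 357 ± 6.94, 1815 ± 51.7 and 2177 ± 69.5 CPM (SD, n = 4 each). The log2 rise was 2.35 in WT (SE 0.06, edgeR adjusted p = 7.91e-18) and 2.61 in SIRT5F101L (SE 0.06, edgeR adjusted p = 1.80e-18).

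Nog (ENSMUSG00000048616) encodes noggin, which covers the receptor-binding faces of BMPs. It was at 20.3, 15.4, 18.3 and 17.5 CPM in Control, at 7.70, 9.17, 5.72 and 6.48 in WT, and at 6.90, 5.46, 5.58 and 5.21 in SIRT5F101L. Both plasmid groups lay below Control and overlapped each other. On the log2 scale Nog fell by 1.30 in WT (SE 0.14, edgeR adjusted p = 8.98e-08) and by 1.62 in SIRT5F101L (SE 0.14, edgeR adjusted p = 4.20e-09).

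Chrd (ENSMUSG00000006958) encodes chordin, the antagonist that the BMP1 family of proteases cuts. Control libraries were at 31.7, 26.7, 28.0 and 30.05 CPM, WT libraries at 15.9, 15.9, 16.8 and 17.3, and SIRT5F101L libraries at 19.6, 13.9, 16.2 and 17.97. Plasmid libraries were all below Control, and the WT values fell inside the wider SIRT5F101L range. Chrd fell by 0.82 on the log2 scale in WT (SE 0.10, edgeR adjusted p = 4.95e-07) and by 0.78 in SIRT5F101L (SE 0.10, edgeR adjusted p = 8.44e-07). Per kilobase, Nog was 10.4% of the summed level of Grem1, Nog and Chrd in Control, against 0.964% in WT and 0.645% in SIRT5F101L. Chrd was 4.60%, 0.593% and 0.511% of it, and Grem1 held the rest, at 85.0% ± 1.34, 98.4% ± 0.176 and 98.8% ± 0.173 (SD, n = 4 each). Other antagonists are outside this sum. In Control, Nbl1 at 263 and Fstl1 at 183 CPM per kilobase lay above Grem1 at 86.0. They lay below Grem1 in WT, at 190 and 301 against 437.5, and in SIRT5F101L, at 167 and 316 against 525.

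Smad6 (ENSMUSG00000036867), which competes with SMAD1 signalling and is itself a BMP target, fell in both plasmid groups. Its RefSeq promoter, chr9:64022040-64022309 on the minus strand of GRCm38.p6, is shown because the palindromic SMAD element GTCTAGAC, in capitals, lies across the transcript start, from base -4 to base 4.
Smad6 promoter: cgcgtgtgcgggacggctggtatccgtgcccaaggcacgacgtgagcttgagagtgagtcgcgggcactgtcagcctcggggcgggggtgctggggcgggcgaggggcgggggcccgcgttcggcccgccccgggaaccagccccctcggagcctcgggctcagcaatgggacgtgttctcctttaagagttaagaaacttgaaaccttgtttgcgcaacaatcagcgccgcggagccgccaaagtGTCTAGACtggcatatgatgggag
Smad6 was at 187, 168, 173 and 186 CPM in Control, at 94.8, 97.4, 90.7 and 95.8 in WT, and at 88.9, 88.6, 88.3 and 97.4 in SIRT5F101L. Control was well above both plasmid groups, and SIRT5F101L replicate 4 was above its 3 companions and level with the highest WT library. Smad6 fell by 0.92 on the log2 scale in WT (SE 0.06, edgeR adjusted p = 3.98e-11) and by 0.98 in SIRT5F101L (SE 0.06, edgeR adjusted p = 1.36e-11).

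Id1 (ENSMUSG00000042745), an early BMP target that encodes an inhibitor of basic helix-loop-helix factors, showed the smallest differences from Control. It was at 175, 169, 168 and 181 CPM in Control, at 151, 166, 151 and 161 in WT, and at 163, 136, 127 and 122 in SIRT5F101L. All 8 plasmid libraries were below the lowest Control library, with SIRT5F101L replicate 1 the highest of its group and inside the WT range. Means were 173 ± 6.18, 157 ± 7.43 and 137 ± 18.3 CPM (SD, n = 4 each). Id1 fell by 0.34 on the log2 scale in SIRT5F101L (SE 0.08, edgeR adjusted p = 0.000597). With an offset for transcript length that value was -0.19 (edgeR adjusted p = 0.00440), the smallest over the alternatives. In WT its log2 fold change was -0.14 (SE 0.07) and did not pass, at an edgeR adjusted p of 0.114. The WT call depended on the fit: the log2 fold change was -0.13 (edgeR adjusted p = 0.0423) with only the 8 compared libraries, -0.19 (0.0319) with upper-quartile scaling, -0.06 (0.359) with an offset for transcript length, and -0.14 (0.0227) without SIRT5F101L replicate 1.

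Without SIRT5F101L replicate 1, all 10 genes stayed called against Control in the same direction, in a fit that called 63.2% of all tested genes. Their log2 fold changes were then 4.98 for Bmp2, -2.67 for Bmp4, 2.05 for Bmp6, 4.21 for Gdf5 and 2.42 for Inhba. They were 2.63 for Grem1, -1.72 for Nog, -0.85 for Chrd, -0.97 for Smad6 and -0.43 for Id1. Without WT replicate 1, 9 genes were called in WT against Control, beside 52.2% of all tested genes, and between the plasmids edgeR called 0 genes of all those tested.

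**Figure D3:**
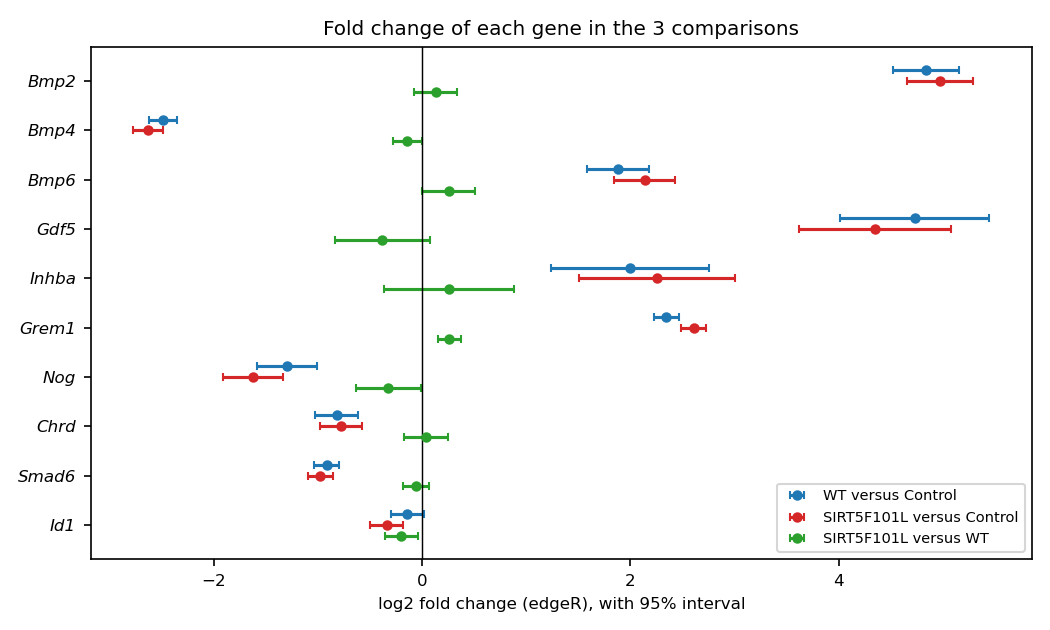
Log2 fold changes of the 10 genes in the 3 comparisons from edgeR, with 95% intervals. The values against Control run from -2.63 for Bmp4 to 4.97 for Bmp2, while those between SIRT5F101L and WT lie between -0.38 and 0.26.

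RefSeq promoters were matched for 6 of the 10 genes, Bmp4, Bmp6, Inhba, Grem1, Chrd and Smad6, as 270-base windows from 250 bases before to 20 after the start. Both strands were searched for 4 motifs: the GC-rich and the palindromic SMAD elements above, the AP-1 motif and the NF-kB motif. GGCGCC was present in Grem1, from base -78 to -73, and in Chrd, from base -203 to -198, and 10.4% of all 32851 promoter windows hold it. The GC content was 71.5% in the Grem1 window and 77.4% in the Chrd window, against a median of 52.6% over all windows. The share among windows as rich in GC was not counted. GTCTAGAC was present in Smad6, and 0.183% of windows hold it. The AP-1 motif, TGANTCA, held by 7.23% of windows, and the NF-kB motif, held by 4.12%, were not found in the 6 windows, and no hits overlapped. Bmp4, Bmp6 and Inhba had none of the 4 motifs there. Grem1, which rose, and Chrd, which fell, share the GGCGCC letters, and these matches are descriptions of sequence only.

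The order of levels per kilobase changed between Control and the plasmid groups. In Control the order was Id1 at 149.5 CPM per kilobase, Bmp4 at 115, Grem1 at 86.0, Smad6 at 55.8, Nog at 10.5, Chrd at 4.65 and Bmp6 at 0.584, and neighbours in this run did not overlap. Bmp2 at 0.201, Gdf5 at 0.0908 and Inhba at 0.0622 CPM per kilobase closed the order, and each overlapped its neighbour among these 3. In WT, Grem1 led at 437.5 CPM per kilobase, ahead of Id1 at 135.5, Smad6 at 29.5 and Bmp4 at 20.5. Bmp2 at 5.82 overlapped Nog at 4.29, and Chrd at 2.63, Gdf5 at 2.40 and Bmp6 at 2.16 overlapped in turn, with Inhba last at 0.249. In SIRT5F101L, Grem1 was at 525, Id1 at 118, Smad6 at 28.3, Bmp4 at 18.5 and Bmp2 at 6.38 CPM per kilobase without overlap between neighbours. Nog at 3.41, Chrd at 2.702, Bmp6 at 2.58 and Gdf5 at 1.85 overlapped in turn, and Inhba was last at 0.299. Per kilobase of the longest transcript Chrd was at 3.84 in SIRT5F101L, above Nog, so the order of this pair depends on the length used. Bmp2 thus stood below Nog and Chrd in Control and above Chrd in every plasmid library.

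Between the plasmids, Grem1 had the lowest p of the 10 genes, though Gdf5 and Nog had larger log2 differences. SIRT5F101L libraries were all above WT libraries, with a log2 difference of 0.26 (SE 0.05, 95% interval 0.15 to 0.37), an unadjusted p of 8.81e-05 and an edgeR adjusted p of 0.0942 over all genes, which misses the threshold. Over the alternative fits that adjusted p ran from 3.24e-06 with DESeq2 to 0.444 without SIRT5F101L replicate 2. Without SIRT5F101L replicate 1 it was 0.000840, at a log2 difference of 0.28. Bmp6 was the other gene whose plasmid groups did not overlap, at a log2 difference of 0.26 (SE 0.12, 95% interval 0 to 0.51, edgeR adjusted p = 0.418). Such separation was found for 2 of the 10 genes and for 4.02% of all tested genes.

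Id1, Bmp4 and Nog differed between the plasmids at an unadjusted p under 0.05 but not after adjustment, and all were lower in SIRT5F101L. Id1 differed by -0.20 on the log2 scale (SE 0.08, 95% interval -0.36 to -0.04, edgeR adjusted p = 0.364). Without SIRT5F101L replicate 1, the library with the different length slope, Id1 differed by -0.29 (edgeR adjusted p = 0.000931), and with a length offset as well by -0.17 (0.0487). That library was at 163 CPM of Id1, the highest of its group and inside the WT range of 151 to 166. Leaving it out must therefore widen the Id1 difference. The differences were -0.14 for Bmp4 (95% interval -0.28 to -0.01, edgeR adjusted p = 0.409) and -0.32 for Nog (95% interval -0.63 to -0.01, edgeR adjusted p = 0.409). For Bmp2, Gdf5, Inhba, Chrd and Smad6 the intervals included 0. Bmp2 differed by 0.13 (-0.08 to 0.33), Gdf5 by -0.38 (-0.84 to 0.07) and Inhba by 0.26 (-0.36 to 0.88). Chrd differed by 0.04 (-0.17 to 0.25) and Smad6 by -0.06 (-0.18 to 0.06). Among these 5 genes the interval was narrowest for Smad6 and widest for Inhba. Without SIRT5F101L replicate 1, the 8 genes other than Grem1 and Id1 were again not called. The log2 difference was then -0.19 for Bmp4 (edgeR adjusted p = 0.0504), -0.42 for Nog (0.0586) and -0.52 for Gdf5 (0.119). It was 0.14 for Bmp2, 0.17 for Bmp6, 0.42 for Inhba, -0.0351 for Chrd and -0.0494 for Smad6, with edgeR adjusted p-values of 0.406 to 0.863.

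**Figure D4:**
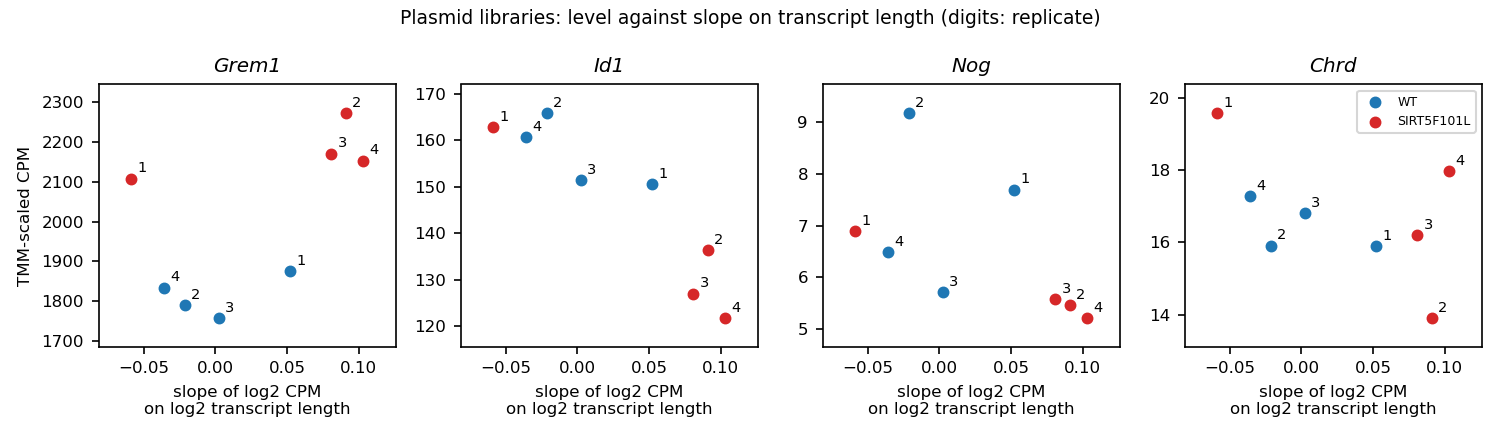
Level in CPM against the slope of expression on transcript length in each of the 8 plasmid libraries, with 1 panel each for Grem1, Id1, Nog and Chrd and the replicate number beside each point; vertical axes do not start at 0. SIRT5F101L replicate 1 has a slope of -0.0588 and lies with the WT libraries for Id1, while its Grem1 level of 2108 CPM lies above all WT libraries.

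The rest of the pathway was read from a list of 65 other ligands, receptors, antagonists, proteases, SMAD factors and targets, of which 51 passed the filter on low counts. In WT, 39 of the 51 were called, 19 higher and 20 lower, beside 56.8% of all tested genes called, 28.7% higher and 28.1% lower. In SIRT5F101L, 44 were called, 22 higher and 22 lower, beside 60.7% of all tested genes, 30% higher and 30.7% lower. When SIRT5F101L replicate 1 was left out, 43 were called against Control, beside 63.2% of all tested genes. Gdf11, at 0.24 on the log2 scale against 0.27 with all libraries, and Smad9 lost the call, and Smad1 gained it. With all libraries, the median absolute log2 fold change of the 51 genes was 0.53 in WT and 0.62 in SIRT5F101L, against 0.37 and 0.40 over all tested genes. This list too was chosen with earlier results of these data known, so the contrast is a description only. Of the 14 not tested, 6 were listed at 0 in all libraries (Bmp10, Bmp15, Inhbc, Inhbe, Chrdl1 and Cer1). Bmp15 and Chrdl1 lie on the X chromosome, and all 2414 gene IDs of that chromosome are listed at 0 in every sample, so nothing can be said of them.

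Among 12 tested ligands, 6 rose and 3 fell in WT, and 7 rose and 4 fell in SIRT5F101L. All tested genes stood at 28.7% higher and 28.1% lower in WT and at 30% and 30.7% in SIRT5F101L. Of the 6, the inhibin subunit Inha, was at 0.44 on the log2 scale and lost its call without WT replicate 1, at 0.40 (edgeR adjusted p = 0.0838). Gdf10, also called BMP3b, fell from 76.3 CPM in Control to 3.29 in WT and 2.26 in SIRT5F101L. On the log2 scale it fell by 4.52 (edgeR adjusted p = 3.17e-15) and by 5.07 (edgeR adjusted p = 1.05e-15). Bmp7, a ligand that gremlin 1 also binds, rose from 0.807 CPM to 5.61 and 6.21, log2 rises of 2.81 (edgeR adjusted p = 9.98e-09) and 2.95 (edgeR adjusted p = 3.86e-09).

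Among 11 tested receptors and co-receptors, 3 rose and 4 fell in WT, and 4 rose and 4 fell in SIRT5F101L. With 56.8% and 60.7% of all tested genes called, about evenly in both directions, the receptors' count is near the background. The type I receptors Bmpr1a and Bmpr1b went opposite ways. Bmpr1b, the receptor that GDF5 prefers, rose from 14.04 CPM to 64.1 in WT and 73.5 in SIRT5F101L, by 2.19 (edgeR adjusted p = 2.02e-13) and 2.39 (edgeR adjusted p = 4.75e-14) on the log2 scale. Bmpr1a fell from 193 CPM to 117 and 125, with log2 fold changes of -0.73 (edgeR adjusted p = 4.39e-09) and -0.62 (edgeR adjusted p = 3.93e-08). The type I receptor Acvr1 rose by 0.24 and 0.26 on the log2 scale (edgeR adjusted p = 0.00166 and 0.000744). Of the type II receptors, Bmpr2 was at 0.11 in WT (edgeR adjusted p = 0.352) and rose by 0.33 in SIRT5F101L (0.00540). Without WT replicate 1, Bmpr2 was at 0.0396 in WT and again not called (edgeR adjusted p = 0.762). SIRT5F101L replicate 1 was at 91.8 CPM of Bmpr2, inside the Control range of 86.0 to 100.7, while the other 3 libraries were at 121 to 132; without it the log2 rise was 0.44 (edgeR adjusted p = 2.59e-06). Neither Acvr2a, at -0.26 and -0.05, nor Acvr2b, at -0.13 and -0.79, passed in either comparison, though Acvr2a was called in WT without WT replicate 1, at -0.38 (edgeR adjusted p = 0.00620). In that fit Acvr2b was at -0.44 and not called (edgeR adjusted p = 0.365).

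All 10 tested antagonists outside Grem1, Nog and Chrd were called in both comparisons, 6 higher and 4 lower in each, beside 56.8% of all tested genes called in WT and 60.7% in SIRT5F101L. Smoc1, a secreted matrix protein that antagonises BMP signalling, fell from 276 CPM to 47.3 in WT and 46.6 in SIRT5F101L, with log2 fold changes of -2.54 (edgeR adjusted p = 7.70e-18) and -2.57 (edgeR adjusted p = 5.77e-18). Bmper, a secreted BMP binding protein, rose from 17.1 CPM to 89.5 and 96.2, by 2.39 (edgeR adjusted p = 3.34e-15) and 2.50 (edgeR adjusted p = 1.58e-15). The activin-binding follistatin gene Fst rose by 0.26 and 0.28 (edgeR adjusted p = 0.00112 and 0.000507), and the pseudoreceptor Bambi had log2 fold changes of -1.05 and -1.30 (edgeR adjusted p = 9.30e-06 and 6.59e-07). Of the 2 tested proteases of the chordin-cutting family, Tll1 rose from 3.97 CPM to 19.5 and 19.1, by 2.30 (edgeR adjusted p = 8.76e-12) and 2.26 (edgeR adjusted p = 1.08e-11), and Bmp1 fell from 156 CPM to 120 and 113, with log2 fold changes of -0.37 and -0.46.

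**Figure D5:**
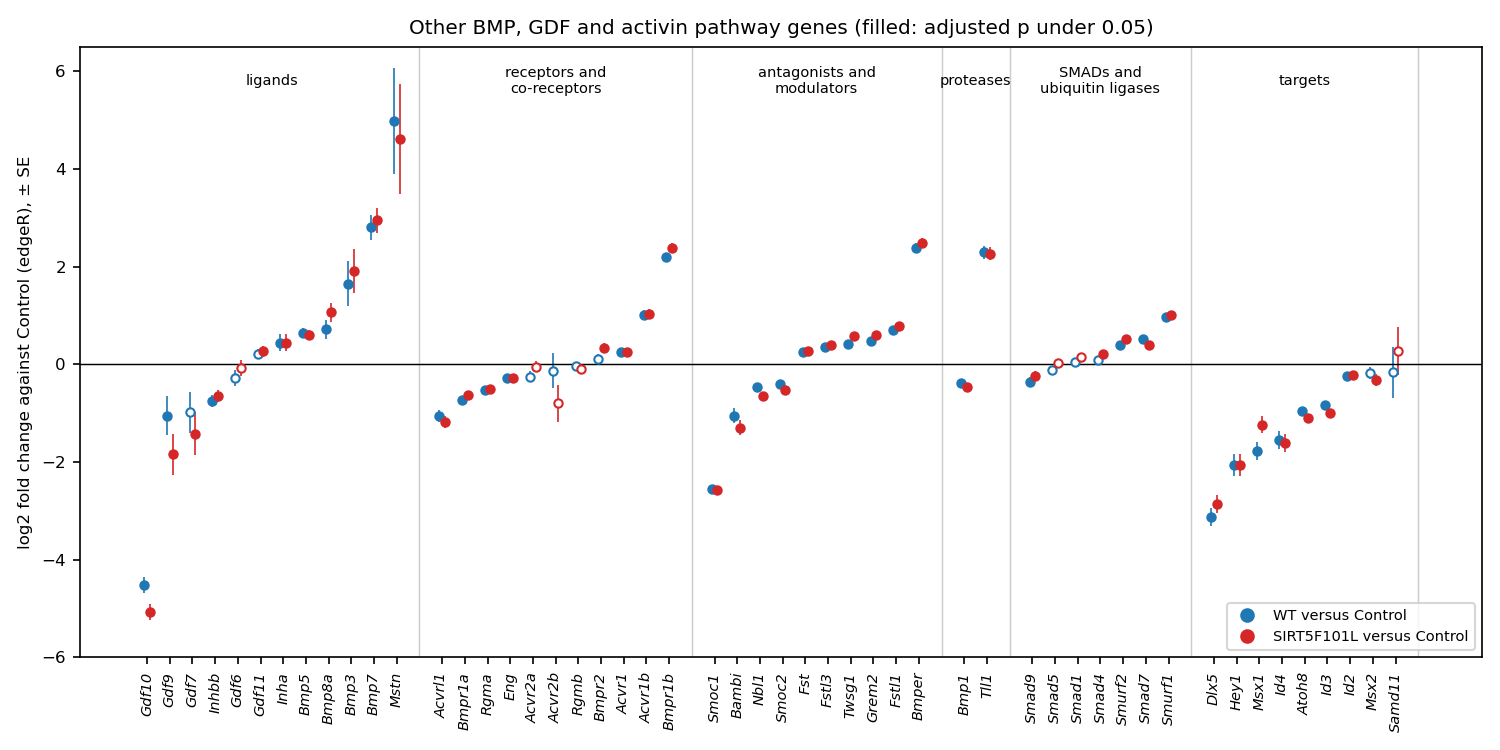
Log2 fold changes from edgeR of the 51 tested pathway genes outside the 10 genes, WT against Control and SIRT5F101L against Control, by role, with SE bars and open symbols for genes not called. No tested gene filed as a target lies among the called higher genes in either comparison, while the other roles hold both directions. The inhibitor Smad7, called higher in both, is filed with the SMADs.

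Of 7 tested genes of the intracellular relay, 3 rose and 1 fell in WT, beside 28.7% and 28.1% of all tested genes, and 4 rose and 1 fell in SIRT5F101L, beside 30% and 30.7%. Among the SMADs that carry the signal to the nucleus, Smad9 was called lower in both comparisons, with log2 fold changes of -0.35 (edgeR adjusted p = 0.00169) and -0.23 (0.0253). The latter, without SIRT5F101L replicate 1, was -0.17 and not called (edgeR adjusted p = 0.0869). Smad1, Smad5 and Smad4 had log2 fold changes of 0.04, -0.12 and 0.08 in WT, none of them called. Without WT replicate 1, Smad4 was at 0.0463 in WT and again not called. In SIRT5F101L, Smad4 rose by 0.21 (edgeR adjusted p = 0.00987), while Smad1 at 0.14 and Smad5 at 0.03 were not called. Without SIRT5F101L replicate 1, Smad1 was called at 0.21 (edgeR adjusted p = 0.0145), and Smad5, at 0.0797, was not. The inhibitor Smad7 rose, by 0.51 in WT (edgeR adjusted p = 3.58e-06) and 0.40 in SIRT5F101L (7.15e-05), opposite in direction to Smad6. Smurf1, a ubiquitin ligase for SMADs and BMP receptors, rose by 0.96 (edgeR adjusted p = 6.72e-11) and 1.02 (edgeR adjusted p = 2.50e-11).

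Of 9 tested targets besides Id1, 7 fell and 0 rose in WT, and 8 fell and 0 rose in SIRT5F101L, beside 28.1% and 30.7% of all tested genes called lower. Id3 fell from 617 CPM to 345 and 310, with log2 fold changes of -0.84 (edgeR adjusted p = 2.43e-08) and -0.99 (edgeR adjusted p = 1.96e-09). Id2 had smaller log2 fold changes of -0.23 and -0.22 (edgeR adjusted p = 0.00473 and 0.00601). Dlx5, a homeobox factor of bone and cartilage, fell from 16.1 CPM to 1.84 and 2.19, with log2 fold changes of -3.12 (edgeR adjusted p = 1.36e-11) and -2.86 (edgeR adjusted p = 3.12e-11). Atoh8, a basic helix-loop-helix factor, fell from 165 CPM to 84.8 and 76.5, with log2 fold changes of -0.96 (edgeR adjusted p = 2.08e-11) and -1.10 (edgeR adjusted p = 2.11e-12).

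Marker genes of cell types moved beside these changes, and their counts stand against 28.7% of all tested genes called higher and 28.1% lower in WT, and 30% and 30.7% in SIRT5F101L. Macrophage markers summed to 161 to 194 CPM in Control, 87.3 to 98.5 in WT and 85.3 to 111 in SIRT5F101L. Of 7 tested, 0 rose and 7 fell in WT and 0 rose and 6 fell in SIRT5F101L. Itgam was at 0 in all libraries. Of its exon bases, 68.7% overlap Gm49368 on the same strand, so reads there may not have been assigned to Itgam. Osteoblast markers summed to 62.6 to 71.99, 40.8 to 52.5 and 38.9 to 61.3 CPM, with 2 of 4 tested lower in each plasmid group. Runx2 was the largest part of this sum, averaging 45.8, 42.6 and 50.3 CPM in Control, WT and SIRT5F101L. Alpl averaged 2.85, 3.02 and 3.21 CPM. Ibsp went from 14.7 CPM to 0.284 and 0.146, and Sp7 from 3.16 CPM to 0.992 and 1.11. Endothelial markers summed to 6.74 to 7.56, 7.25 to 9.81 and 8.06 to 9.98 CPM, with 1 of 5 tested higher in each. Muscle markers summed to 7.59 to 9.11, 2.31 to 4.56 and 1.87 to 3.69 CPM, with 2 of 2 tested lower in each. All 6 fibroblast and synovial markers were called, 2 higher and 4 lower in each plasmid group, and Col1a1 among them averaged 12698, 3704 and 3404 CPM. Of the 9 chondrocyte markers, 2 rose and 7 fell in WT, and 1 rose and 7 fell in SIRT5F101L. The part of these shifts in the changes of the BMP genes was not tested.

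In the comparison of the plasmids, 0 of the 51 pathway genes were called by edgeR, and 7 passed at an unadjusted p under 0.05, beside 11.9% of all tested genes. Without SIRT5F101L replicate 1, 9 of them were called, in a fit that called 15.2% of all tested genes, so the count is near the background. These were Bmpr1b, Bmpr2, Twsg1, Smad4, Smurf2 and Msx1, higher in SIRT5F101L, and Gdf10, Nbl1 and Id3, lower. With an offset for transcript length as well, 6 were called, beside 8.17% of all tested genes, of which Gdf10, Nbl1 and Msx1 were called in both fits. The offset moved Bmpr1b from 0.28 to 0.19 on the log2 scale, Bmpr2 from 0.33 to 0.0991, Twsg1 from 0.17 to 0.14, Smad4 from 0.18 to 0.17, Smurf2 from 0.18 to 0.0961 and Id3 from -0.26 to -0.15. These 6 were no longer called, and Bambi at -0.48, Bmp1 at -0.18 and Smad7 at -0.20 on the log2 scale were called where without the offset they were at -0.40, -0.0970 and -0.16. Id3 was at 381 CPM in SIRT5F101L replicate 1 and at 286 to 288 in the other 3 libraries, against 319 to 363 in WT. Bmpr1b was at 60.9 CPM in that library and at 76.6 to 78.9 in the other 3, against 60.2 to 70.5 in WT.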

How the data were processed

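Per the labels, poly-A RNA was taken from samples with an RNA integrity number above 6.8 and read as 150-base pairs. The submitters' processing notes name FastQC 0.11.9, HISAT2 2.2.1, HTSeq 2.0.2 and DESeq2 1.38.3 and the builds GRCm39 and mm39; the strand setting is not given in the sources used here. The deposited files hold raw gene counts, per sample and not normalized, as their whole numbers show. Every library is deep enough that 1 count is 0.0401 to 0.0650 CPM, and low genes are limited by counting error.

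Counts of all 12 samples were fitted with edgeR 4.0.16 (R 4.3.3): TMM scaling, filterByExpr by group, 1 mean per group, the 2-sided quasi-likelihood test, 9 residual degrees of freedom and Benjamini-Hochberg adjustment over 14253 genes. The fit was tested on simulated data. Gene lengths for levels per kilobase came from GENCODE M21 on GRCm38, whose coordinates were not mixed with those of the counts, and promoters from RefSeq GRCm38.p6. Symbols were matched for 52029 of 57010 IDs. No 2 samples were identical.

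The genes and lists were chosen with earlier results of these data known. Of 66 pathway genes listed, 65 were matched. Named besides the 10 genes were 14 set receptors, SMADs, Id genes and antagonists, 3 cartilage genes, Sirt5 and, for each comparison with Control, the 6 further pathway genes with the lowest adjusted p that changed at least 2-fold without overlap, at 1 CPM or more; genes named outside this rule were chosen after their values were seen. Alternatives were other scaling, filters, a robust prior, only the compared samples, DESeq2 1.42.0, a transcript-length offset, exon length and each replicate left out; the length offset without SIRT5F101L replicate 1 was added after seeing the data.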

Additional observations from a re-analysis of the deposited data

Results flagged for a closer look

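Of the 30 sets of 4 libraries screened (10 genes in 3 groups), 1 held a library far from the others by Dixon's test at its 95% level, where chance gives 1.5. Smad6 was at 97.4 CPM in SIRT5F101L replicate 4, against 88.3 to 88.9 CPM in the other 3 libraries of that group, and the gap was 0.937 of the group's range. Without that library the log2 fold change of Smad6 against Control was -1.01 and stayed called by edgeR.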

How the results depend on the processing

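All 9 calls among the 10 genes in WT against Control and all 10 in SIRT5F101L against Control kept their direction and stayed called under every alternative run. Leaving out each replicate gave 9 to 10 genes called in WT and 10 in SIRT5F101L, and 37 to 41 and 41 to 44 pathway genes, in fits that called 52.1% to 60.2% and 55.6% to 63.2% of all tested genes. Id1 in WT against Control was the 1 gene that gained a call. Between the plasmids, where 0 of the 10 genes were called, 1 was called (Grem1) with no filter and 1 (Grem1) with DESeq2. Leaving out each replicate gave 0 to 2 of the 10 genes and 0 to 9 pathway genes, with the highest counts, Grem1 and Id1 among them, without SIRT5F101L replicate 1. With a length offset as well, the counts were 2 and 6. For pathway genes, no filter gave 1. The difference of Chrd between the plasmids turned to -0.0351 without SIRT5F101L replicate 1 and to -0.0803 with the length offset as well, and was at most 0.117 when a replicate was left out. The causes were not tested. Over all genes, 6 were called between the plasmids, against 354 with no filter, 43 with DESeq2, 22 with the length offset, 2 with the robust prior and 2 with only the compared samples. That count was 2213 without SIRT5F101L replicate 1, 1187 with the length offset as well, and 0 to 3 without any other replicate. Levels per kilobase of Chrd in Control moved from 4.65 to 6.61 with the longest transcript, and in SIRT5F101L to 3.84, past Nog at 3.41. Low Control counts limit the size of the rise of Gdf5, Bmp2 and Inhba. No paired analysis was possible because the replicate numbers of the samples come from accession order and pair nothing.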

Other observations

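Some pathway genes outside the naming rule, chosen after their values were seen, also moved with both plasmids. The activin type I receptor gene Acvr1b rose from 20.9 CPM in Control to 42.2 in WT and 42.9 in SIRT5F101L, by 1.02 and 1.04 on the log2 scale, while Acvrl1, a receptor known from endothelium, fell from 11.04 CPM to 5.30 and 4.88, with log2 fold changes of -1.06 and -1.17. Fstl1, a secreted glycoprotein of the follistatin family, rose from 901 CPM to 1479 (log2 rise 0.71) and 1552 (0.78). Hey1, a target shared with Notch signalling, fell from 4.70 CPM to 1.13 and 1.12, with log2 fold changes of -2.05 and -2.06. All of these were called by edgeR in both comparisons with Control, which share the Control libraries.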
